A study of Mus musculus with 23 samples.

Results

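The Rab, Arf and vesicle trafficking genes described here are 156 mouse genes measured on microarrays while A404 cells differentiated towards smooth muscle. They were chosen by name: a probe belongs to the group when it carries a single gene symbol that begins with Rab, Arf, Arl, Stx or Sec and a digit, with Cop and a letter, or with Vps, Snx, Vamp or Sytl. The rule found 197 probes, which were averaged per symbol to 156 genes of the 8683 genes measured by such probes. By family these were 42 Rab, 4 Arf, 7 Arl, 27 Vps, 21 Snx, 11 Stx, 5 Vamp, 22 Sec, 15 Cop and 2 Sytl genes. A prefix is not a function: 14 of the 156 encode something other than a trafficking protein named by that prefix, among them 8 subunits of the COP9 signalosome (Cops genes), which acts on ubiquitin ligases and is no vesicle coat. The other 142 are trafficking genes.

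A404 cells are 1 clone of the P19 mouse embryonal carcinoma line, known to carry a puromycin resistance gene under the control of the smooth muscle actin (Acta2) promoter. The Control group (6 arrays) was undifferentiated A404 cells taken near confluence at time 0. The RA48 group (5 arrays) had 1 µmol/L all-trans retinoic acid for 48 hours, begun at low density, and the RA96 group (6 arrays) had it for 96 hours. The Puromycin group (6 arrays) had 96 hours of retinoic acid and then 48 hours of puromycin. Whether retinoic acid stayed in the medium during puromycin is not given in the labels. Each replicate pooled 5 to 6 plates. Cell density and time in culture differed between the groups along with the treatment, and these cannot be told apart. RNA of the cells carried the red dye and RNA of whole mouse embryos of day 17.5, the same for all arrays, carried the green dye, with no dye swap. Values are log2 ratios of cells over embryo, in which a difference of 1 is a 2-fold difference. The direction was read from the dyes in the labels and is not stated in the value table. A ratio of 0 means as much signal as in the embryo, so levels are not comparable between genes. In bulk RNA, fewer cells of a type and less RNA per cell cannot be told apart.

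Rab and Arf proteins are small GTPases that switch between a GTP-bound form on membranes and a GDP-bound form, and through their effectors they direct where vesicles form, move and dock. Arf proteins recruit the COPI coat, which carries cargo within the Golgi and back to the endoplasmic reticulum (ER), while the COPII coat takes new secretory and membrane proteins out of the ER. Syntaxins and R-SNAREs such as the VAMPs fuse the vesicle with its target. Sorting nexins, retromer and retriever send cargo back from endosomes, ESCRT complexes sort cargo for the lysosome, and the multisubunit HOPS and CORVET complexes tether endosomes and lysosomes.

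Beyond the named groups, the arrays split into 2 sets. Deviations from the group means had a first principal component with 48.9% of their variance (the next held 10.6%), and its sign put Control 1 to 3, RA48 1 to 3, RA96 1 and 3 and Puromycin 1 to 3 in a first set of 11 arrays and the other 12 in a second. Arrays correlated at 0.83 to 0.98 within a set and at 0.70 to 0.85 between sets. Every group is in both sets, so counts of called genes are also given within them. Control and Puromycin were split evenly between the sets, but RA48 and RA96 were not. The main fit had no term for set, so its changes that involve RA48 or RA96 include some of the difference between sets. Stage markers set Control, RA48 and RA96 apart. The mean log2 ratio of 8 embryonal carcinoma genes per array ran from 2.41 to 2.85 in Control, from 0.46 to 0.73 in RA48, from -0.09 to 0.24 in RA96 and from -0.35 to -0.05 in Puromycin. The mean of 8 smooth muscle genes ran from -2.61 to -1.53 in Control, from -0.67 to -0.24 in RA48, from 0.05 to 0.63 in RA96 and from 0.17 to 0.98 in Puromycin. For both lists the ranges of RA96 and Puromycin overlapped. In Puromycin versus RA96, 1 of the 8 smooth muscle genes (Cald1) was called higher and none lower, and Acta2 was not called. Of the 8 embryonal carcinoma genes 1 (Dnmt3b) was called lower and none higher. Of all genes 4.7% were higher and 3.12% lower in that comparison. Markers of extraembryonic endoderm moved as well: of 8 measured, 6 were higher in RA48 than in Control, and their mean ran from -0.08 to 0.01 in RA48 and from -1.21 to -0.72 in Control. Of 6 blood and endothelium markers 3 (Kdr, Cd34 and Pecam1) were higher and none was lower in RA48 than in Control, and the mean of the 6 ran from -1.39 to -0.91 in RA48 and from -2.32 to -1.21 in Control. Both counts stand beside 18% of all genes higher and 16.4% lower in RA48 than in Control. The part of these other cell type markers in the results below was not tested.

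Over the 4 groups, limma's moderated F test called 90 of the 156 genes at an adjusted p under 0.05, beside 60.8% of all genes called and 52.7% of all features tested. The differences were mostly modest. The range of the 4 group means was at least 1 (2-fold) in 15 genes, or 9.62% of the group against 17.4% of all genes, and its median was 0.44 against 0.53. The median SD between arrays of 1 group was 0.21 for these genes and 0.23 for all genes.

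The first 48 hours of retinoic acid asked what changes as embryonal carcinoma cells leave the undifferentiated state. Of the 156 genes 60 were called in RA48 versus Control, 45 higher and 15 lower, beside 34.4% of all genes called (18% higher and 16.4% lower) and 26% of all 17863 features tested, unnamed probes included. The median change was 0.12, against -0.02 over all genes. Called changes of 2-fold or more were seen in 6 genes: Snx1, Vamp8, Snx33 and Arf2 were higher, and Rab39b and Arl14ep were lower. The ranges of RA48 and Control arrays were separate in 41 genes, beside 25.9% of all genes. The direction was shared by both array sets for all 60 called genes, which their being called favours, and 44 passed the test within each set alone. The first set alone called 78 of the 156 and the second 60. With each group's arrays of 1 set taken as a random block, 13 of the 156 genes were called, beside 12.5% of all genes called in that fit. All 13 were among the 60.

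**Figure D1:**
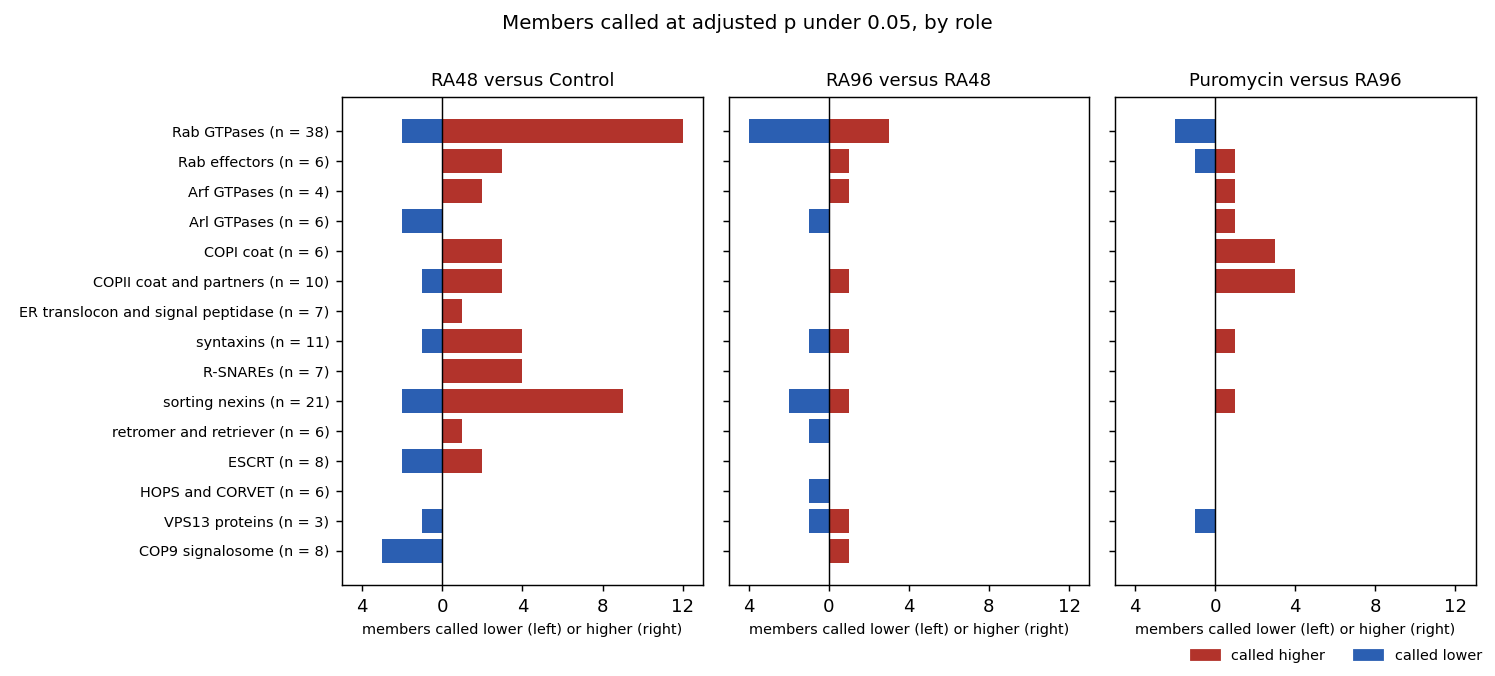
Number of genes called higher (right, red) or lower (left, blue) at an adjusted p under 0.05, by role, in 3 successive comparisons; n is the number of genes measured per role. In RA48 versus Control 12 Rab GTPases and 9 sorting nexins were higher, and in Puromycin versus RA96 the calls among coat genes (3 COPI, 4 COPII) were all higher. Of all genes 18% were higher in the former comparison and 4.7% in the latter.

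Among the Arf GTPases, Arf2 changed at every step. Its log2 ratio on the arrays (lowest, median and highest for groups of 6) was -0.56, -0.30 and -0.10 in Control, 0.62, 0.78, 0.69, 0.84 and 0.88 on the 5 RA48 arrays, 0.91, 1.23 and 1.82 in RA96, and 1.57, 2.07 and 2.28 in Puromycin. All RA48 arrays lay above all Control arrays and all RA96 arrays above all RA48 arrays, while the ranges of Puromycin and RA96 overlapped. Arf2 encodes a class I Arf, of the class that brings COPI to Golgi membranes. It was higher by 1.10 ± 0.16 (SE) in RA48 than in Control (adjusted p = 1.32e-05, limma), by 0.52 ± 0.16 in RA96 than in RA48 (adjusted p = 0.0249) and by 0.71 ± 0.15 in Puromycin than in RA96 (adjusted p = 0.00606). The middle step rested on the first array set: the change there was 1.01, against 0.21 in the second set, and without any 1 of RA48 1, 2 or 3 or RA96 1, 2 or 3 its adjusted p was 0.0507 to 0.0686. From end to end Arf2 was 2.34 ± 0.15 higher in Puromycin than in Control, and the 2 sets gave 2.70 and 1.97.

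The other Arf genes divided. Arf4, a class II Arf that acts at the early Golgi, averaged 0.57 ± 0.12 in RA48 (SD, n = 5) and 0.13 ± 0.14 in Control (SD, n = 6), and its rise of 0.43 ± 0.09 (SE) was called (adjusted p = 0.000983). Of its 2 probes 1 was called, with changes of 0.08 and 0.79. In Puromycin Arf4 was 0.93 ± 0.09 higher than in Control (adjusted p = 1.27e-08), where its 2 probes changed by 0.20 and 1.65 and 1 was called. Neither Arf3, a class I Arf, nor Arf6, which works at the plasma membrane and endosomes, was called in any of the 5 comparisons. Their changes in Puromycin versus Control were 0.11 ± 0.16 and 0.25 ± 0.16 (SE). Of the 6 Arl GTPases, relatives of the Arfs, none was higher in RA48 and 2 were lower, beside 18% and 16.4% of all genes. Arl1, which recruits golgins to the trans-Golgi, was called in the last step, at 0.39 ± 0.14 in Puromycin and 0.06 ± 0.15 in RA96 (SD, n = 6 each; change 0.33 ± 0.09 SE, adjusted p = 0.0261). That call was lost without any 1 of 5 arrays (Puromycin 1, 2 or 3, RA96 2 or 5; adjusted p 0.0636 to 0.0788).

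Of 38 Rab GTPases 12 were higher and 2 lower in RA48 than in Control, beside 18% of all genes higher and 16.4% lower (34.4% called). Rab11a, the GTPase of the recycling endosome, measured -0.81, -0.41 and -0.20 (lowest, median, highest) in Control, 0.33, 0.44, 0.39, 0.32 and 0.44 on the RA48 arrays, 0.34, 0.52 and 0.65 in RA96, and 0.23, 0.48 and 0.60 in Puromycin. Every array after retinoic acid lay above every Control array, and the 3 later groups overlapped. The change in RA48 versus Control was 0.82 ± 0.10 (adjusted p = 9.89e-07), with 0.99 in the first array set and 0.64 in the second. Rab11fip2, an effector that binds Rab11, went the same way, with 0.67, 0.80, 0.60, 0.05 and 0.38 on the RA48 arrays and -0.42, -0.30 and -0.20 in Control (change 0.82 ± 0.13, adjusted p = 3.99e-05). The lowest RA48 value was still above the highest Control value. A further Rab11 effector, Rab11fip5, was not called in RA48 versus Control but averaged -0.21 ± 0.34 in Puromycin and -1.47 ± 0.36 in Control (SD, n = 6 each), a difference of 1.26 ± 0.17 (SE, adjusted p = 3.01e-06). Rab11fip1, also a Rab11 effector, was instead called lower in RA96 and in Puromycin than in Control. Its 2 probes changed by -1.15 and -0.38 in RA96 and by -0.96 and -0.44 in Puromycin, with 1 called in each. These calls were lost without any 1 of 7 arrays for RA96 and of 11 for Puromycin. Rab14, which acts between the Golgi and endosomes, was 0.53 ± 0.13 higher in RA48 than in Control (adjusted p = 0.00353). The ranges of those 2 groups overlapped, and those of RA96 and Control did not (change 0.85 ± 0.13, adjusted p = 9.12e-06).

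Rab39b moved the other way and further than any other of the 156 genes that fell in RA48 versus Control. Its values were 0.73, 1.27 and 2.00 in Control, -0.22, 0.05, 0.02, 0.08 and 0.38 on the RA48 arrays, -0.26, -0.03 and 0.19 in RA96, and -0.23, 0.23 and 0.76 in Puromycin. All RA48 and RA96 arrays lay below all Control arrays, and the highest Puromycin array lay just above the lowest Control array. Rab39b, a Rab best known from neurons, fell by 1.32 ± 0.21 in RA48 versus Control (adjusted p = 5.35e-05). The array sets differed in size here, with changes of -1.81 in the first and -0.78 in the second. In Puromycin the first set lay between 0.56 and 0.76 and the second between -0.23 and -0.10. Of 11 neuronal marker genes measured, 1 was higher and 3 were lower in RA48 than in Control, a total near the 34.4% of all genes called (18% higher and 16.4% lower). Their mean ran from -0.70 to -0.40 in RA48 and from -0.83 to -0.26 in Control. Their part in the fall of Rab39b was not tested.

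**Figure D2:**
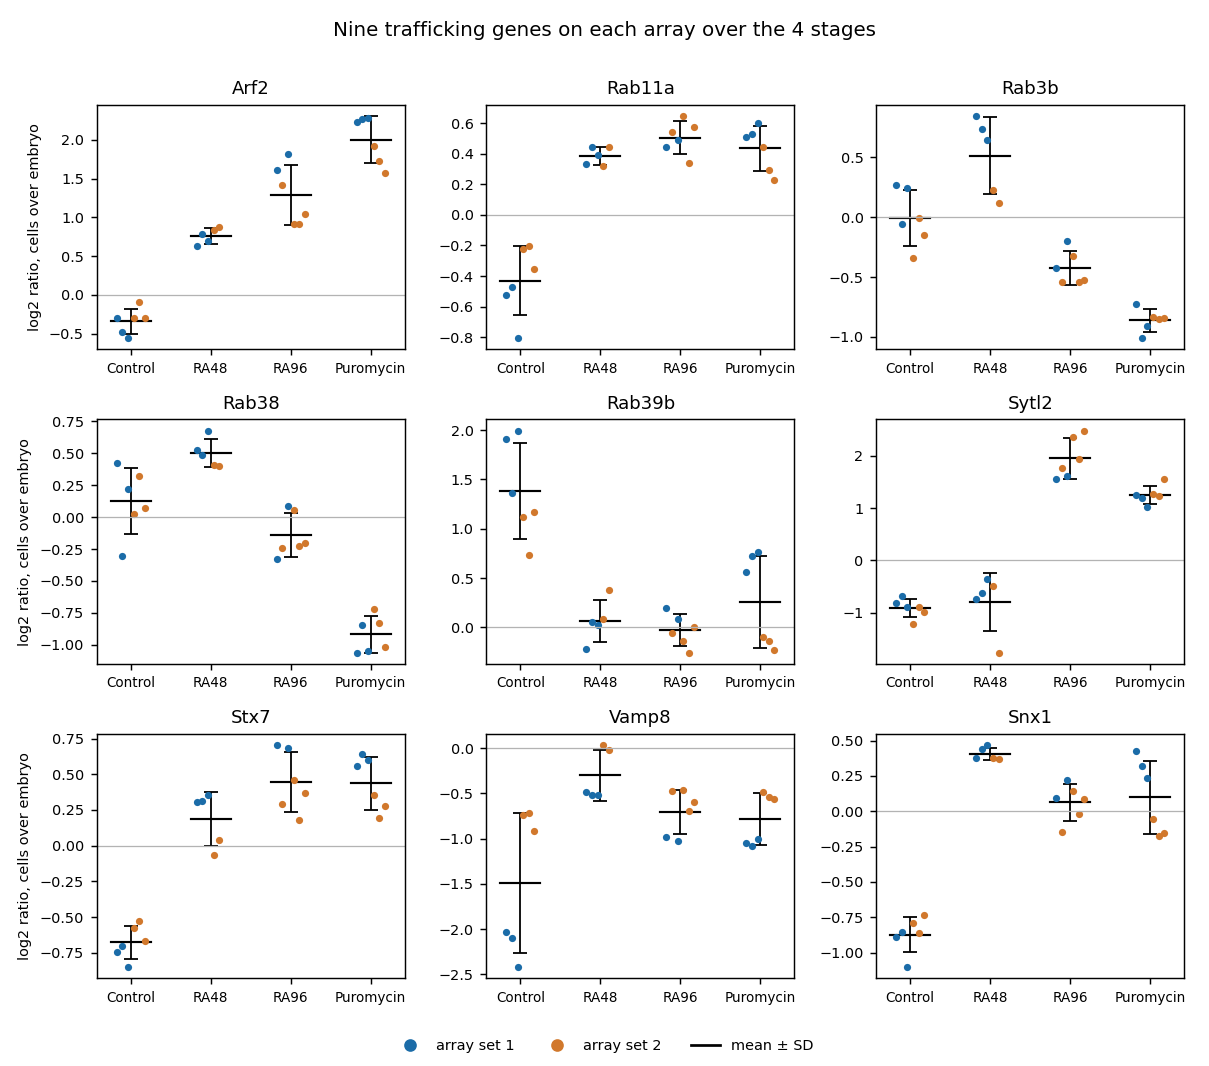
Log2 ratio of cells over embryo (y axes) for 9 genes on each of the 23 arrays in the 4 groups (x axes, in order of the protocol), coloured by array set, with group mean ± SD in black. Arf2 climbed at each step, Rab11a, Stx7 and Snx1 were above Control on every later array, Sytl2 was high only in RA96 and Puromycin, and Rab3b and Rab38 were highest in RA48 and lowest in Puromycin.

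Promoter windows are shown for 3 of these GTPase genes, the 1 that rose throughout, the 1 that rose at once and stayed, and the 1 that fell. Each is the 250 bases before the annotated start in RefSeq on build GRCm38.p6, 5′ to 3′ on the strand of the gene: chr11:103966475-103966724 on the plus strand for Arf2 (the first of 2 starts listed), chr9:64737757-64738006 on the minus strand for Rab11a and chrX:75578232-75578481 on the minus strand for Rab39b. Capitals mark matches to a CCAAT box (CCAAT, or ATTGG on the reverse strand) and, in Rab11a at -154, to the CArG box known as the binding sequence of serum response factor.
Arf2: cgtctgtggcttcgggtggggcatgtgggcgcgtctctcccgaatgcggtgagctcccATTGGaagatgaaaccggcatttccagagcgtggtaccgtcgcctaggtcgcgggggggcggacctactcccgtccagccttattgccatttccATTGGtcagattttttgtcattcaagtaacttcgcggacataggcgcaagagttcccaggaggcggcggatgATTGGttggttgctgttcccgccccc
Rab11a: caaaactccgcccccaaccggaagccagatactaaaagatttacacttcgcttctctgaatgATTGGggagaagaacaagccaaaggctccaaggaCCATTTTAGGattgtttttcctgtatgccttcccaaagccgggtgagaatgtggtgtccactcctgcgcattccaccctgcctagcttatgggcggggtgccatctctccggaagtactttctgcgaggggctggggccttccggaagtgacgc
Rab39b: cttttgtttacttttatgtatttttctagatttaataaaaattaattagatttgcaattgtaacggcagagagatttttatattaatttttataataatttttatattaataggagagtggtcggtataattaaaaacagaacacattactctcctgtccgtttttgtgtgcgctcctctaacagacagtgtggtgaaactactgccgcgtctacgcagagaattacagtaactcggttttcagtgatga
The window of Arf2 held 3 CCAAT matches, at -192, -98 and -26, that of Rab11a held 1 at -188 and that of Rab39b held no match. RefSeq windows were listed for 125 of the 156 genes. On both strands, CCAAT was found in 46 of the 125 (36.8%), beside 36.0% of 7014 genes on the arrays and 34.5% of all 27025 listed promoters. A CArG box was found in 2 (1.6%, Vamp1 and Rab11a), beside 1.13% and 1.40%. The hexamer AGGTCA, repeats of which retinoic acid receptors bind, was found in 5 (4%), beside 10.0% and 13.8%. A match here describes letters only, and the absence of one says nothing of a factor's binding.

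Rab3b and Rab38 were highest in RA48 and then fell at both later steps. Rab3b, a Rab of regulated secretion, measured -0.34, -0.03 and 0.27 in Control, 0.84, 0.74, 0.64, 0.23 and 0.12 on the RA48 arrays, -0.54, -0.47 and -0.20 in RA96, and -1.01, -0.85 and -0.72 in Puromycin. The RA96 arrays all lay below the RA48 arrays and the Puromycin arrays all below the RA96 arrays. It was 0.52 ± 0.13 higher in RA48 than in Control (adjusted p = 0.00346), fell by 0.94 ± 0.13 in RA96 versus RA48 (adjusted p = 2.45e-05) and fell by 0.44 ± 0.12 in Puromycin versus RA96 (adjusted p = 0.0369). The last of these calls was lost without any 1 of 10 arrays (adjusted p 0.0521 to 0.0946).

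Rab38, which acts with Rab32 in the making of lysosome-related organelles such as melanosomes, had -0.31, 0.14 and 0.42 in Control, 0.53, 0.49, 0.68, 0.41 and 0.40 on the RA48 arrays, -0.33, -0.21 and 0.09 in RA96, and -1.06, -0.93 and -0.72 in Puromycin. Each Puromycin array was below each array of the other groups. Rab38 fell by 0.64 ± 0.11 in RA96 versus RA48 (adjusted p = 0.000496) and by 0.78 ± 0.11 in Puromycin versus RA96 (adjusted p = 0.000115). Its earlier rise of 0.38 ± 0.11 in RA48 versus Control (adjusted p = 0.0163) was lost without RA48 3 (adjusted p = 0.0525). No melanocyte marker was measured by a probe with a single symbol, so that cell type could not be assessed.

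Sytl2 had the largest single step of the 156 genes. It encodes an effector of Rab27 that tethers secretory vesicles to the plasma membrane. Its log2 ratio was -1.21, -0.88 and -0.69 in Control, -0.73, -0.63, -0.35, -0.49 and -1.76 on the RA48 arrays, 1.56, 1.85 and 2.48 in RA96, and 1.01, 1.24 and 1.55 in Puromycin. Control and RA48 overlapped, and all RA96 and Puromycin arrays lay far above both. Sytl2 was 2.74 ± 0.20 higher in RA96 than in RA48 (adjusted p = 5.52e-09), with 2.15 in the first array set and 3.26 in the second. It was the only one of the 156 with a called change of 2-fold or more at that step. In Puromycin Sytl2 was 0.70 ± 0.19 lower than in RA96 (adjusted p = 0.0358), a call lost without any 1 of 8 arrays (adjusted p 0.0544 to 0.101) and within either set (adjusted p = 0.055 and 0.10). Of its GTPase partners, Rab27b was 0.46 ± 0.15 higher in RA96 than in RA48 (adjusted p = 0.0296), a call lost without any 1 of 5 arrays (RA48 1, 2 or 3, RA96 2 or 5). Rab27a, named here after its values were seen, did not pass the test at that step (0.13 ± 0.10, adjusted p = 0.392) and fell by 0.40 ± 0.10 in RA48 versus Control (adjusted p = 0.00355). The second Sytl gene, Sytl4, which binds Rab27 on granules, averaged 1.29 ± 0.23 in RA48 (SD, n = 5) and 0.70 ± 0.33 in Control (SD, n = 6), a rise of 0.60 ± 0.14 (SE, adjusted p = 0.00259).

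Among the sorting nexins 9 of 21 were higher and 2 lower in RA48 than in Control, beside 18% and 16.4% of all genes. Snx1, a membrane-bending nexin of the endosome-to-Golgi route, had the largest rise of all 156 genes at this step. It measured -1.10, -0.86 and -0.73 in Control, 0.38, 0.44, 0.47, 0.38 and 0.37 on the RA48 arrays, -0.15, 0.09 and 0.22 in RA96, and -0.18, 0.09 and 0.43 in Puromycin. The 5 RA48 values lay close together and all above Control. The change was 1.28 ± 0.10 (adjusted p = 3.2e-09), 1.38 in the first array set and 1.17 in the second. It then fell by 0.34 ± 0.10 in RA96 versus RA48 (adjusted p = 0.0244), which was lost without RA48 2, RA48 3 or RA96 2 (adjusted p 0.0571 to 0.0634).

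A partner of Snx1 moved the other way. Snx5, which pairs with Snx1 or Snx2 in that coat, had 0.71, 0.80, 0.68, 0.75 and 0.71 on the RA48 arrays and 0.96, 1.34 and 1.66 in Control. No RA48 array reached the lowest Control array, and Snx5 fell by 0.60 ± 0.12 (adjusted p = 0.000488). Snx9 and Snx33 belong to the SH3-domain nexins that work with dynamin in endocytosis, and both were higher. Snx33 measured 0.40, -0.07, 0.26, -0.34 and -0.37 on the RA48 arrays and -1.45, -1.13 and -0.77 in Control (change 1.12 ± 0.14, adjusted p = 2.69e-06). For Snx9 the RA48 values were 0.02, -0.01, 0.03, 0.13 and -0.06 and the Control values -0.71, -0.57 and -0.50 (change 0.61 ± 0.07, adjusted p = 2.22e-07). Neither gene overlapped between RA48 and Control. The single largest rise among retriever and retromer genes was that of Vps35l, the retriever subunit that exports integrins and other cargo from endosomes, by 0.85 ± 0.10 (adjusted p = 1.07e-06), while the other 5 genes of these complexes were not called in RA48 versus Control.

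Of 7 R-SNARE genes 4 were higher in RA48 than in Control and none was lower, and of 11 syntaxins 4 were higher and 1 was lower. Of all genes 18% were higher and 16.4% lower. Stx7, a syntaxin of late endosomes, had -0.85, -0.68 and -0.53 in Control, 0.31, 0.31, 0.35, -0.06 and 0.04 on the RA48 arrays, 0.18, 0.41 and 0.70 in RA96, and 0.20, 0.46 and 0.64 in Puromycin. All later arrays lay above all Control arrays, and both of its probes were called in RA48 versus Control (change of the mean 0.87 ± 0.11, adjusted p = 3.02e-06). Stx12, a syntaxin of early and recycling endosomes, was 0.54 ± 0.08 higher in RA48 than in Control (adjusted p = 1.34e-05) and 0.98 ± 0.08 higher in Puromycin than in Control (adjusted p = 4.45e-10). Stx1a, the syntaxin of regulated exocytosis, averaged 0.06 ± 0.27 in RA96 (SD, n = 6) and -0.39 ± 0.16 in RA48 (SD, n = 5), a difference of 0.44 ± 0.11 (SE, adjusted p = 0.00954).

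Vamp8, an R-SNARE of endosomes and secretory granules, measured -0.48, -0.52, -0.52, 0.03 and -0.02 on the RA48 arrays and -2.42, -1.47 and -0.72 in Control. The groups did not overlap, but the Control arrays were split by set, the first between -2.42 and -2.03 and the second between -0.92 and -0.72. The rise of 1.19 ± 0.27 (adjusted p = 0.00156) was 1.68 in the first set and 0.80 in the second. Sec22b, the R-SNARE between ER and Golgi, rose by 0.82 ± 0.09 (adjusted p = 2.14e-07), with 0.34, 0.42, 0.44, 0.39 and 0.48 on the RA48 arrays and -0.64, -0.36 and -0.18 in Control. Its 3 probes disagreed in size, with changes from -0.00 to 2.15 and 2 of them called. Vamp4, a SNARE of the trans-Golgi, was 0.41 ± 0.13 higher (adjusted p = 0.0168), with 0.69 in the first set and 0.06 in the second, and was not called without RA48 1 or RA48 2 (adjusted p 0.0531 to 0.0539). Vamp2, the synaptobrevin of regulated exocytosis, was 0.43 ± 0.15 higher (adjusted p = 0.0428), a call lost without any 1 of 8 arrays (adjusted p 0.0501 to 0.129). Vamp1 and Vamp3 were called in no comparison, with changes of -0.14 ± 0.18 and -0.25 ± 0.13 in RA48 versus Control.

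Lysosome-directed complexes were mixed. Of 8 ESCRT genes 2 were higher and 2 lower in RA48 than in Control, beside 18% and 16.4% of all genes. Both falls were ESCRT-I subunits: Vps37a averaged -0.52 ± 0.30 in RA48 (SD, n = 5) and 0.41 ± 0.74 in Control (SD, n = 6), and fell by 0.93 ± 0.25 (SE, adjusted p = 0.00735). The fall of Vps37b by 0.48 ± 0.15 (adjusted p = 0.0193) was not called without RA48 3 (adjusted p = 0.0651). None of the 6 HOPS and CORVET genes was called in RA48 versus Control. Vps13a, of the VPS13 proteins that carry lipids between organelles, had 0.18, 0.19, 0.19, 0.10 and -0.07 on the RA48 arrays and 0.49, 0.92 and 1.05 in Control. The groups did not overlap, and Vps13a fell by 0.73 ± 0.09 (adjusted p = 1.84e-06), as 4 of its 5 probes did singly. Among genes that share only a prefix, Arl14ep fell by 1.01 ± 0.09 in RA48 versus Control (adjusted p = 7.94e-09) and 3 of 8 Cops genes were lower with none higher. Without the 14 such genes, 44 were higher and 11 lower of 142.

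**Figure D3:**
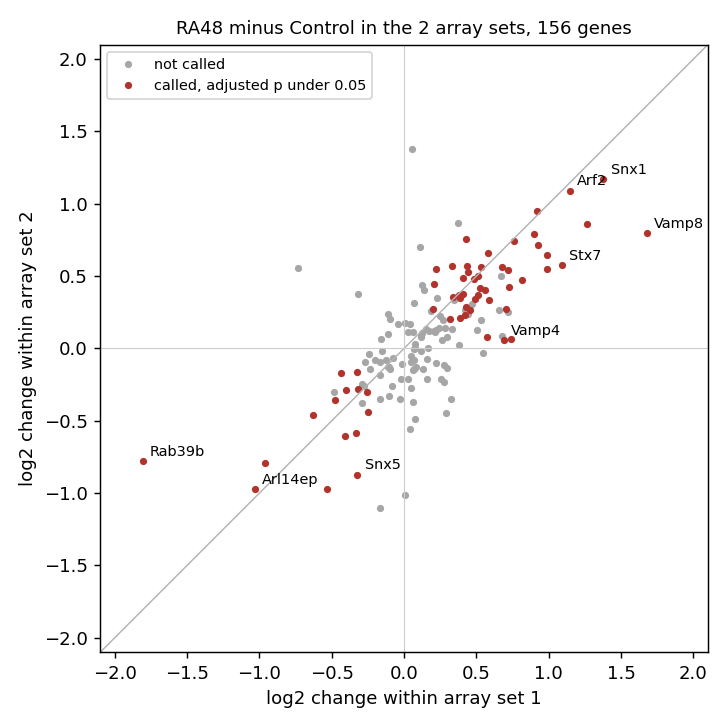
Log2 change in RA48 minus Control within array set 1 (x axis) and within array set 2 (y axis) for the 156 genes, red where called in all arrays (60 genes) and grey where not, with the line of equal change. Called genes had 1 direction in both sets, while Vamp8 (1.68 and 0.80) and Rab39b (-1.81 and -0.78) lay off the line.

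The next comparison covered 48 to 96 hours of retinoic acid. Of the 156 genes 24 were called in RA96 versus RA48, 11 higher and 13 lower, beside 22.4% of all genes called (10.8% higher and 11.6% lower) and 19.8% of all features tested, and the median change was -0.01 against -0.03 over all genes. In 12 the groups did not overlap, beside 13.7% of all genes. Sytl2, Rab3b and Rab38, described above, were among them. Rab10, a GTPase of exocytic vesicles, was 0.45 ± 0.13 higher (adjusted p = 0.0211), and Rab4a, of fast endosomal recycling, fell by 0.57 ± 0.17 (adjusted p = 0.0227). Both calls were lost without any 1 of RA48 1, 2 or 3 (adjusted p 0.0588 to 0.0704 for Rab10 and 0.0707 to 0.0734 for Rab4a). Snx27, a nexin that links cargo to retromer, fell by 0.52 ± 0.15 (adjusted p = 0.0192), with -0.15 in the first set and -0.66 in the second. The number called depended on single arrays: it was 9, 10 and 9 without RA48 1, 2 and 3, and 15 without RA96 2. It was 47 in the first set alone and 14 in the second, with 10 called in both, and with the random block 2 were called, Rab3b and Sytl2, beside 2.29% of all genes.

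The puromycin step, which keeps cells that express resistance, was compared with RA96. Here 16 of the 156 genes were called, 12 higher and 4 lower, beside 7.82% of all genes called (4.7% higher and 3.12% lower) and 5.27% of all features tested. The median change was 0.04, against -0.01 over all genes. In 14 genes the groups did not overlap, beside 6.63% of all genes. Of the 12 that were higher, 3 were among the 6 COPI coat genes and 4 among the 10 COPII genes and partners. The 4 lower genes were Rab38, Rab3b, Sytl2 and Vps13d. The first set alone called 25 of the 156 and the second 18. Within each set taken alone 9 of these 16 passed the test, and the direction was shared by both sets for all 16. With the random block none was called, beside 0.173% of all genes called in that fit (limma). At an unadjusted p under 0.05 in the same fit were 9 of the 156 genes, beside 618 of all 17863 features. Without Puromycin 2 the number was 10.

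The 3 COPI genes that rose encode the alpha, beta and beta-prime subunits of the coat. Copa measured -0.53, -0.24 and -0.03 in Control, 0.19, 0.16, 0.28, 0.21 and 0.16 on the RA48 arrays, -0.04, 0.11 and 0.42 in RA96, and 0.60, 0.73 and 0.87 in Puromycin. Puromycin arrays lay above all others and Control arrays below all RA48 arrays. Copa was 0.60 ± 0.09 higher in Puromycin than in RA96 (adjusted p = 0.000343), with 0.57 in each array set. Copb1 had 1.51, 1.64 and 1.79 in Puromycin and 0.92, 1.09 and 1.31 in RA96, without overlap (change 0.53 ± 0.09, adjusted p = 0.000915). For Copb2 the values were 1.17, 1.27 and 1.51 in Puromycin and 0.63, 0.91 and 1.00 in RA96, again without overlap (change 0.41 ± 0.10, adjusted p = 0.0112). The other 3 COPI genes, Cope, Copg2 and Copz1, were not called at this step.

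In the COPII coat, Sec23a and Sec24a encode inner-layer proteins that select cargo, Sec13 encodes part of the outer cage (and of the nuclear pore), and Sec23ip encodes a partner of Sec23. Sec23a measured -0.59, -0.28 and -0.16 in Control, -0.19, 0.06, -0.15, -0.04 and 0.02 on the RA48 arrays, 0.12, 0.27 and 0.38 in RA96, and 0.63, 0.70 and 0.94 in Puromycin. Control and RA48 overlapped, all RA96 arrays lay above all RA48 arrays, and all Puromycin arrays above all RA96 arrays. The step of 0.49 ± 0.09 in Puromycin versus RA96 had an adjusted p of 0.00114, and Puromycin was 1.08 ± 0.09 above Control (adjusted p = 7.18e-10). The smaller rises of 0.29 ± 0.09 in RA48 versus Control and 0.30 ± 0.09 in RA96 versus RA48 (adjusted p = 0.019 and 0.0212) were lost without RA48 2 (adjusted p = 0.0576) for the first, and without RA48 1 or RA48 3 (adjusted p 0.0629 to 0.0693) for the second. Sec23b, also among the COPII genes, was called lower in RA48 than in Control. That call was lost without Control 5, RA48 4 or RA48 5 (adjusted p 0.0502 to 0.0612). Sec23ip had 1.24, 1.37 and 1.39 in Puromycin and 0.72, 0.94 and 1.06 in RA96, with no overlap (change 0.43 ± 0.08, adjusted p = 0.00219). Sec13 had 1.64, 1.68 and 1.93 in Puromycin and 0.98, 1.36 and 1.45 in RA96 (change 0.41 ± 0.08, adjusted p = 0.00432). Its groups did not overlap either, but 1 RA96 array was low. Sec24a was 0.50 ± 0.12 higher (adjusted p = 0.0155) with overlapping groups, 1 of its 2 probes called, and an adjusted p of 0.0508 without Puromycin 2. Among the 7 of the 156 genes that belong to the ER translocon and signal peptidase, through which new proteins enter the ER, none was called at this step. Genes of ER entry outside the 156 were called higher at the same step: the signal peptidase subunit Spcs3 by 0.37 ± 0.08 (adjusted p = 0.00501), and the ER-targeting genes Srpr and Srp9 by 0.40 ± 0.08 and 0.35 ± 0.09 (adjusted p = 0.00453 and 0.0315). These 3 were chosen after their values were seen.

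**Figure D4:**
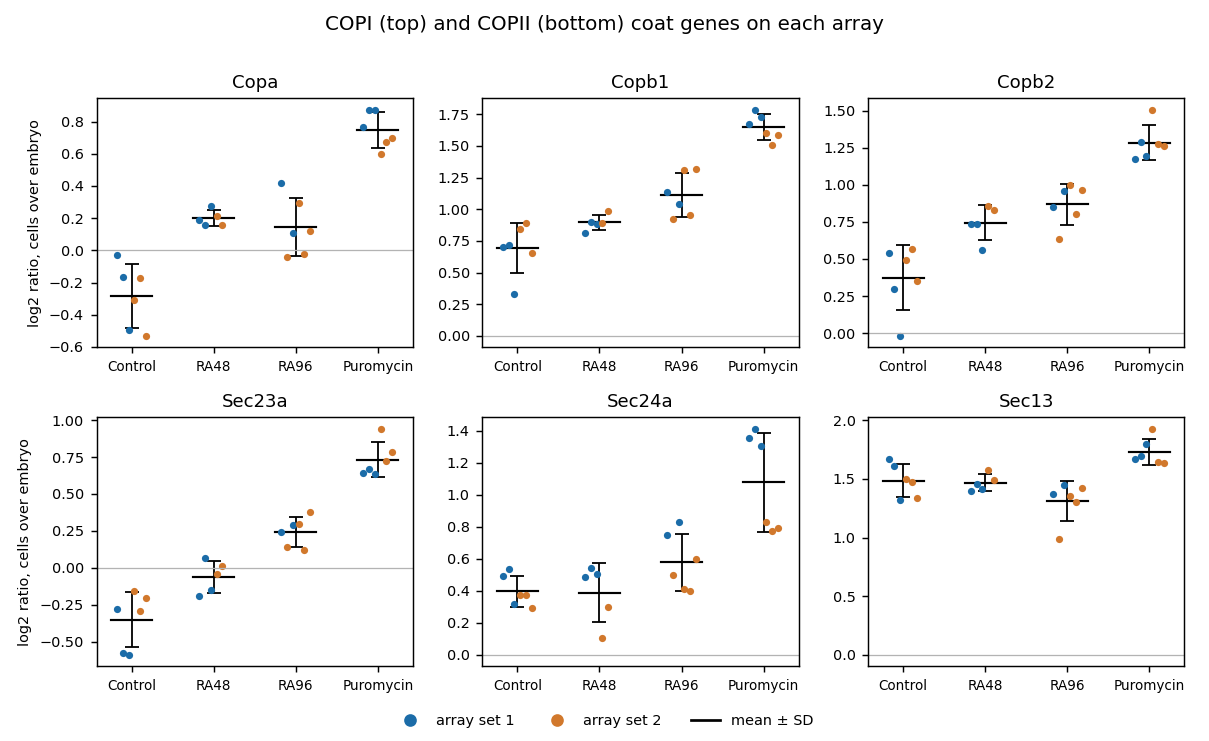
Log2 ratio of cells over embryo (y axes) for 3 COPI and 3 COPII coat genes on each of the 23 arrays in the 4 groups (x axes), coloured by array set, with group mean ± SD in black. Puromycin arrays lay above all RA96 arrays for every gene drawn but Sec24a.

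**Figure D5:**
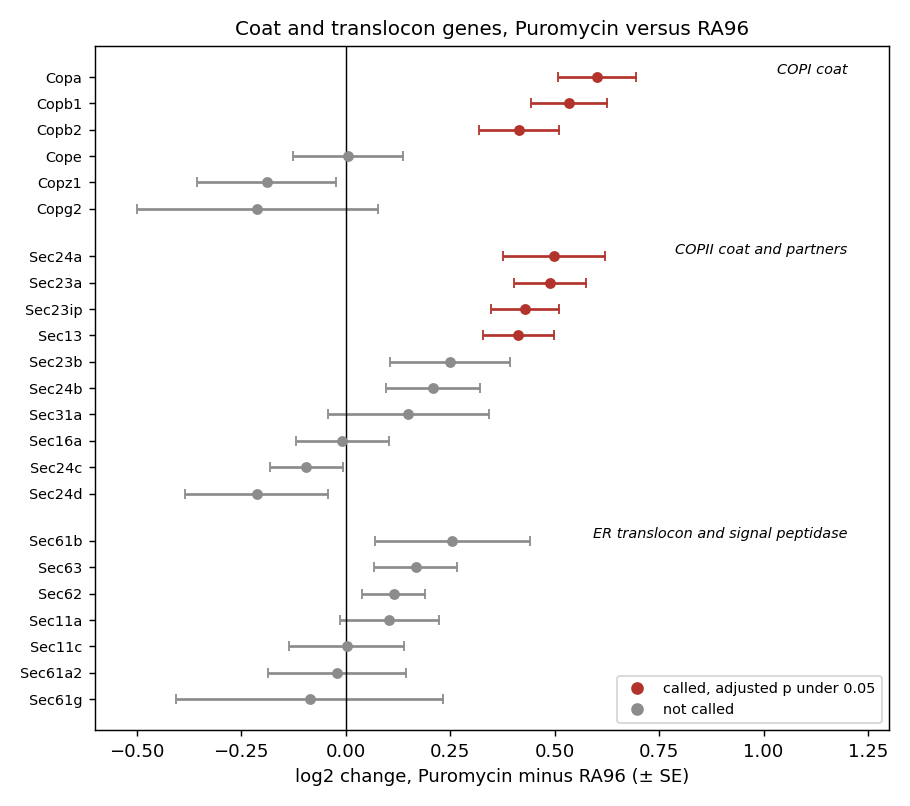
Log2 change in Puromycin minus RA96 with its SE (x axis) for 23 genes of the COPI coat, the COPII coat and the ER translocon and signal peptidase (y axis), red where called. The 7 called genes changed by 0.41 to 0.60, and none of the 7 translocon and signal peptidase genes drawn was called.

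The promoter window of Copb1 is shown because it was 1 of 3 among the 125 genes (2.4%, with Sec24d and Snx30) to hold TGACGTG, the core of an element bound by unfolded protein response factors, and the only one among the coat genes called in Puromycin versus RA96. The share was 2.45% of array genes and 1.61% of all promoters. The window lies at chr7:114254681-114254930 on the minus strand (GRCm38.p6, RefSeq, 5′ to 3′ on the strand of the gene), and capitals mark the match, on the reverse strand at -27.
Copb1: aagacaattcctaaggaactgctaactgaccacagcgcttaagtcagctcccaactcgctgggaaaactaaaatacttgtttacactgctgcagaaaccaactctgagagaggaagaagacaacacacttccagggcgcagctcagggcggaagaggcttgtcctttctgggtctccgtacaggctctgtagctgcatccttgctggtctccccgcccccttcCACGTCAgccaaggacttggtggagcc
Neither the window of Copa nor that of Sec23a held a match to any of the 4 motifs searched. The window of Sec24a held AGGTCA, as 1 of the 12 genes called higher in Puromycin versus RA96 (8.33%), beside 10.0% of array genes.

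Over the whole protocol 87 of the 156 genes were called in Puromycin versus Control, 64 higher and 23 lower, beside 53.2% of all genes called (24.6% higher and 28.6% lower) and 46.3% of all features tested. The median change was 0.19, against -0.06 over all genes, and 57 genes did not overlap between the groups, beside 35.2% of all genes. In RA96 versus Control 76 were called, 53 higher and 23 lower, beside 51.5% of all genes called (23.9% higher and 27.6% lower) and 46.1% of all features tested, and 44 did not overlap between the groups, beside 32.2% of all genes. These comparisons share their Control arrays with RA48 versus Control, so their calls are not independent. By role, 18 of 38 Rab GTPases were higher and 6 lower in Puromycin than in Control, 11 of 21 sorting nexins were higher and 2 lower, and 6 of 10 COPII and 4 of 6 COPI genes were higher with none lower. Called changes of 2-fold or more were seen in 10 genes. Arf2, Sytl2, Rab11fip5, Rab11fip2, Stx7, Sec23a and Copa were higher by 1.03 to 2.34, and Rab38, Rab39b and Arl14ep were lower by changes from -1.34 to -1.04. The first and second sets alone called 106 and 80 of the 156 in Puromycin versus Control, and 80 and 76 in RA96 versus Control. With the random block 42 of the 156 genes were called in Puromycin versus Control, beside 24.5% of all genes in that fit, and 27 in RA96 versus Control, beside 21.5%.

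Genes that work with these families were counted from lists of their regulators and partners, none of which belong to the 156. The first list held 29 measured genes of the early secretory pathway, both cargo receptors of ER exit and genes of ER entry (signal recognition, translocon and signal peptidase). Of these, 9 were higher and none lower in Puromycin than in RA96, beside 4.7% and 3.12% of all genes, and 19 were higher and none lower in Puromycin than in Control, beside 24.6% and 28.6%. The 9 were Kdelr3, Tmed5, Surf4, Ctage5, Mcfd2 and Tmed7, of ER exit and retrieval, and Srpr, Spcs3 and Srp9, of ER entry. The median change of the 29 in Puromycin versus RA96 was 0.18, against -0.01 over all genes. Kdelr3, a receptor that returns escaped ER proteins on COPI vesicles, averaged 1.00 in Puromycin and -0.25 in RA96, 1.25 ± 0.21 higher (adjusted p = 0.000972), and 1.04 and 1.35 within the array sets. Surf4, a cargo receptor of ER exit, was 0.62 ± 0.09 higher in Puromycin than in RA96 (chosen after its values were seen, adjusted p = 0.000256).

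Regulators of the GTPase cycles and the other partner lists were counted in the same way, and each count for RA48 versus Control stands beside 18% of all genes higher and 16.4% lower. Counts for RA96 versus RA48 stand beside 10.8% higher and 11.6% lower, and those for Puromycin versus RA96 beside 4.7% and 3.12%. Of 31 Rab cycle genes 10 were higher and 6 lower in RA48 than in Control, and none was called in Puromycin versus RA96. Of 24 Arf cycle genes 6 were higher and none lower in RA48, 5 were lower with none higher in RA96 than in RA48, and 1 was higher in Puromycin than in RA96. Asap1, an Arf GTPase-activating protein, was 1.09 ± 0.15 higher in RA48 than in Control (adjusted p = 6.34e-06). Gga2, on the same list, changed by -0.79 ± 0.10 in RA96 versus RA48 (adjusted p = 1.58e-05). Among 29 genes of the SNARE machinery 6 were higher and 2 lower in RA48 than in Control. Stxbp6, which binds syntaxin, was 1.05 ± 0.14 higher (adjusted p = 4.63e-06). It then changed by -0.59 ± 0.14 in RA96 versus RA48 (adjusted p = 0.00537) and by -0.79 ± 0.13 in Puromycin versus RA96 (adjusted p = 0.000896). Stxbp6 averaged -1.34 in Puromycin and -1.01 in Control, and was called lower in that comparison. In Puromycin versus RA96, 2 of the 29 were higher (Ykt6 and Snap23) and 2 lower (Stxbp6 and Stxbp4). Ykt6, an R-SNARE, was 0.65 ± 0.12 higher at that step (adjusted p = 0.00149).

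Of 35 coat and adaptor genes outside COPI and COPII, 10 were higher and 1 was lower in RA48 than in Control, a total near the 34.4% of all genes called, and 1 was lower with none higher in Puromycin than in RA96. The lower gene in RA48 was Ehd3, an ATPase of recycling endosomes, by -1.71 ± 0.11 (adjusted p = 8.05e-11). Dab2, a clathrin adaptor that is also on the endoderm marker list, was 1.42 ± 0.19 higher (adjusted p = 4.13e-06). Of 28 tether genes 4 were higher and 2 lower in RA48, a smaller share than that of all genes. The largest rise was that of Golga1, a golgin of the trans-Golgi (1.48 ± 0.28, adjusted p = 0.000313). Uso1 had the larger of the falls (-0.39 ± 0.09, adjusted p = 0.0012). In Puromycin versus RA96 Exoc5, an exocyst subunit, changed by 0.46 ± 0.08 (adjusted p = 0.000673) and Cog5 by -0.51 ± 0.12 (adjusted p = 0.0134). Of 23 genes of ESCRT and lysosome sorting 9 were higher and 2 lower in RA48 than in Control. Lamp2, a lysosomal membrane protein, was 1.01 ± 0.09 higher in RA48 than in Control (adjusted p = 1.09e-08). Hps3, on the same list, changed by -0.82 ± 0.24 in RA48 versus Control (adjusted p = 0.0148) and by -0.75 ± 0.24 in RA96 versus RA48 (adjusted p = 0.0342).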

How the data were processed

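Each array gave 1 value per probe, and the deposited values are processed log ratios. Their base, centring and direction are not stated in the sources used here. They were read as log10 ratios of Cy5 over Cy3, as the authors' Feature Extraction software writes them, and were divided by 0.301, the log10 of 2, to give log2. Per the labels the arrays were read on an Agilent scanner. Array medians lay between -0.08 and 0.02 on the log2 scale. No intensities or backgrounds were used, so no detection limit can be given, and the number of arrays limits the precision. Whether replicates were separate cultures is not given in the labels; the p-values rest on how far arrays of 1 group differ, and that difference may be technical.

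Of 21446 probes 1166 control-like ones were left out. Of the 20280 kept, 11100 had 1 gene symbol, 442 several and 8738 none, and probes of 1 symbol were averaged. All 17863 resulting features were fitted together over the 4 groups with limma 3.58.1 (R 4.3.3, statmod 1.5.0), with moderated tests and Benjamini-Hochberg adjustment. A gene was called at an adjusted p under 0.05. Counts and figures used Python 3.11.15, numpy 2.4.6, pandas 2.3.3 and matplotlib 3.10.9. On simulated data with known changes the fitting step was tested first. Alternatives were other scalings, array sets as a block or alone, a random block, array weights, replicate blocks and leaving out each array.

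Named genes were, in each comparison, up to 8 called genes with the largest rise and up to 8 with the largest fall. To these were added, per family, the 2 with the smallest F-test p and the highest and lowest mean, and all Arf, Vamp and Sytl genes. From each partner list came the called gene with the largest rise and that with the largest fall, of which only some are described. The genes and lists were chosen with earlier results of these data known.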

Additional observations from a re-analysis of the deposited data

Results flagged for a closer look

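In 268 groups of 5 or 6 arrays, the highest or lowest array of 8 stood apart from the others by Dixon's test (gap over range above 0.71 for 5 arrays and 0.625 for 6). Chance gives such a gap in about 1 in 20 groups. Values are log2 ratios of cells over embryo. Arf4 measured -0.127 on Control 5 and 0.110 to 0.237 on the other Control arrays. Copb2 measured 1.51 on Puromycin 4 and 1.17 to 1.29 on the others of that group. On the same array Cops7a, a COP9 signalosome subunit, measured 1.59, with 1.26 to 1.37 on the others. Sec13 measured 0.984 on RA96 2 and 1.31 to 1.45 on the others. Stx3, a syntaxin of apical exocytosis, measured 3.95 on Control 4 and 0.524 to 1.63 on the others. Sytl2 measured -1.76 on RA48 5 and -0.734 to -0.354 on the others. Vps25, an ESCRT-II subunit, measured 1.43 on Control 4 and -0.148 to 0.287 on the others. Vps37b measured 0.953 on Control 5 and -0.231 to 0.208 on the others.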

How the results depend on the processing

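No named call changed sign under any alternative. Of 160 named calls, 160 were kept with array set as a block, 115 were called within both sets, 120 were kept without every array and 63 were kept with the random block. The sets were drawn from the deviations within groups of these same arrays, so splitting by set lowers the remaining spread by construction. With array set as a block, calls over all genes rose from 2985 to 4292 in RA48 versus Control. Calls kept under that block are therefore no independent check. With that random block the numbers of genes called were 13 (RA48 versus Control), 2 (RA96 versus RA48) and 0 (Puromycin versus RA96, with 9 at an unadjusted p under 0.05, limma), then 27 for RA96 and 42 for Puromycin against Control, and 35 by the F test. Array weights, whose estimation did not fully converge, gave 95, 90 and 40 in the first 3 of these. In RA96 versus RA48 the number was 15 with only the groups compared, 42 with array set as a block, 47 in the first set, 14 in the second and 7 at an adjusted p under 0.01. In Puromycin versus RA96 it was 32 with array set as a block, 25 in the first set and 8 at an adjusted p under 0.01. Fits of only the groups compared give no F test. Leaving out 1 array gave 50 to 62, 66 to 81 and 75 to 87 for RA48, RA96 and Puromycin against Control, 9 to 27 for RA96 against RA48, 10 to 18 for Puromycin against RA96, and 83 to 96 by the F test. The arrays that moved a number by over 1.5 times were RA48 1, 2 and 3 and RA96 2 (9, 10, 9 and 15 in RA96 versus RA48) and Puromycin 2 (10 in Puromycin versus RA96).

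With the replicate number as a block the numbers were 71, 90 and 100 for RA48, RA96 and Puromycin against Control, 34 for RA96 against RA48, 25 for Puromycin against RA96, and 111 by the F test. Deviations of same-numbered arrays correlated at over 0.1 in 30 of 33 pairs. The other 3 pairs involve RA96 2 and cross the array sets. Within a set the median was 0.410 over 30 same-numbered pairs and 0.417 over 68 pairs with different numbers. An array's best match in another group had its own number in 18 of 69 cases, so the arrays are taken to share only a number.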
